A study of Mus musculus with 4 samples.

Results

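Fosl2, Fosl1, Fos and Fosb are the 4 genes of the mouse Fos family, and they were examined across 4 RNA-seq libraries of CT26, a colon carcinoma cell line of the mouse. They were taken by gene symbol from a table of 55335 genes, and each symbol matched 1 row. All 4 were among the 11955 genes tested, which had at least 1 FPKM (fragments per kilobase of exon, relative to all mapped fragments) in at least 2 libraries. CT26_102 and CT26_CTL, named here by their titles, carry the labels FOSL2-WT and PBS. CT26_102_R and CT26_CTL_R carry the labels FOSL2-KO and chemoradiotherapy. Genotype and treatment therefore change together and cannot be told apart. Fosl2 RNA was not lower under the FOSL2-KO label, since each library that carries it lies above each that carries FOSL2-WT. The same order held for 22.3% of all tested genes. Fosl2 was lower with stem CT26_102 than with stem CT26_CTL at either suffix, though that difference did not pass in limma (adjusted p = 0.130). These are RNA values per gene and do not show whether FOSL2 protein was made. Whether the labels or the title stems mark cells with disrupted FOSL2 was not settled here, so each difference is named only by its label or stem. The labels do not say what the stem CT26_102 or the suffix R means, how FOSL2 was disrupted, whether a line is 1 clone, or when cells were taken. Knockout is the word of the sample labels, knockdown (KD) that of the design text. Each combination of title stem (CT26_102 or CT26_CTL) and suffix (none or R) is 1 library.

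Fos proteins are subunits of AP-1, a transcription factor that binds DNA as a dimer of basic leucine zipper proteins. They pair with Jun proteins and do not form stable homodimers. Fos and Fosb are immediate early genes, switched on briefly by growth factors and stress, and their proteins carry a strong activation domain. Fosl1 and Fosl2 encode FRA1 and FRA2, which lack that domain, stay up for longer after a stimulus, and are common in tumour cells with an active RAS and ERK pathway.

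The DNA that encodes the centre of the basic region, which contacts AP-1 sites, is shown for the 4 genes side by side. Whether it is the part where the transcripts are most alike was not measured. Capitals mark bases that differ from Fosl2. The stretches lie within 1 coding exon each, at chr5:32150454-32150501 (plus strand), chr19:5454446-5454493 (plus), chr12:85475625-85475672 (plus) and chr7:19306586-19306633 (minus) of GRCm38, in the order printed.
Fosl2: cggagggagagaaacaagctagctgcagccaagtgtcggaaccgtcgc
Fosl1: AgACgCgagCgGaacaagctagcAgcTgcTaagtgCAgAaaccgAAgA
Fos: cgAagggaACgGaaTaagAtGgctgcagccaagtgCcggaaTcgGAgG
Fosb: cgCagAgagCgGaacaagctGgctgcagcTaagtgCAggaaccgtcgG
Of these 48 bases, Fosl1 differs from Fosl2 at 15, Fos at 12 and Fosb at 9. Over the whole principal transcripts, the longest identical run between any pair of the 4 genes was 12 to 17 bases.

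Fosl2 (ENSMUSG00000029135, GRCm38 chromosome 5, 32135801 to 32157842, plus strand) has 3 annotated transcripts, of which 1 is protein coding. Fosl1 (ENSMUSG00000024912, chromosome 19, 5447547 to 5455946, plus strand) has 3. It shares 1163 of its 2033 exonic bases with Ccdc85b on the opposite strand, and whether the counting used strand is not given in the sources used here. Ccdc85b was at 4.57, 5.28, 6.39 and 6.79 FPKM in CT26_102, CT26_102_R, CT26_CTL and CT26_CTL_R. Multiplied by exonic length, its fragments came to between 13.3% and 22.4% of those given to Fosl1, and without strand, reads of the shared bases cannot be told apart, so values of Fosl1 are uncertain. Fos (ENSMUSG00000021250, chromosome 12, 85473890 to 85477273, plus strand) has 4 transcripts, and Fosb (ENSMUSG00000003545, chromosome 7, 19302696 to 19310051, minus strand) has 7. No other gene overlaps Fosl2, Fos or Fosb in the annotation. The table gives 1 value per gene, so the short form of FosB and any truncated Fosl2 transcript are not resolved.

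Estimated depth was between 21.5 and 26.5 M reads per library (M for mega). It came from the value that 1 read adds to genes with 1 annotated transcript and at least 300 exonic bases. At that depth the Fos genes rested on about 190 reads or more each, and counting error alone came to at most 7.35% for any of their values. Mitochondrially encoded genes took 12.0% and 12.3% of total FPKM in the CT26_102 libraries and 9.37% and 9.09% in the CT26_CTL libraries. The cells are labelled as colon adenocarcinoma cells. Of 9 colon epithelial markers, 3 (Krt18, Krt20 and Krt8) reached 1 FPKM in a library, while Epcam and Cdx2 were listed at 0 in all 4. Markers of T and NK cells summed to at most 0.730 FPKM in a library. The labels name no separate cultures, so every p-value here rests on a spread between libraries that may be technical. With 1 library per combination of stem and suffix, that spread is not one between replicates. In the fit with labelled group and title stem as terms, it is how far the stems differ in their change with the suffix. The standard errors (SE) also draw on the spread of the other tested genes.

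Fosl1 was the leading Fos transcript in every library. It was at 47.3, 92.1, 72.5 and 82.9 FPKM in CT26_102, CT26_102_R, CT26_CTL and CT26_CTL_R. Between 91.5% and 95.4% of tested genes lay below it in a library. It made up 64.8%, 76.0%, 79.6% and 74.5% of the summed FPKM of the family, the lowest share being that of CT26_102.

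Fosl2 came next in 3 of the 4 libraries. It was at 9.35, 16.0, 12.7 and 19.2 FPKM in the same order of libraries, a share of 12.8%, 13.2%, 13.9% and 17.3% of the family. Fosl1 stood above it by 5.06, 5.77, 5.71 and 4.31 times. Between 59.3% and 77.4% of tested genes were lower than Fosl2 in a library. Fosl2 was thus expressed in both libraries labelled FOSL2-KO, at higher values than in both labelled FOSL2-WT, an order shared by 22.3% of tested genes.

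Fos, the founding member of the family, split the libraries by title stem. Both CT26_102 libraries lay above both CT26_CTL libraries, as for 28.0% of tested genes. Its FPKM was 11.6 and 9.77 with stem CT26_102, without and with the suffix R, and 2.98 and 4.22 with stem CT26_CTL. In CT26_102 it stood above Fosl2, whose ratio to Fos was 0.808 there and 1.63, 4.26 and 4.55 in the other 3 libraries. Its share of the family was 15.8%, 8.06%, 3.27% and 3.80%.

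Fosb was low in every library, at 4.81, 3.35, 2.93 and 4.97 FPKM. Fos and Fosb were nearly equal in CT26_CTL, at a ratio of 1.01, and Fosb was above Fos in CT26_CTL_R, at a ratio of Fos to Fosb of 0.850. With 1 library per combination these small gaps have no replicate spread to be set against. Fos and Fosb together made up 22.4%, 10.8%, 6.49% and 8.26% of the family in the order of libraries above.

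The order of the genes depends in part on the length by which fragments are divided. The deposited values divide by all annotated exons of a gene, 9680 bases for Fosl2 and 6243 for Fosb, where the principal transcripts have 6537 and 3782. Per length of the principal transcript, a calculation added after the data were seen, Fosl2 was above Fos in all 4 libraries instead of 3 and Fos above Fosb in 2 instead of 3. Fosl1 was first in all 4 libraries on both scales.

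**Figure D1:**
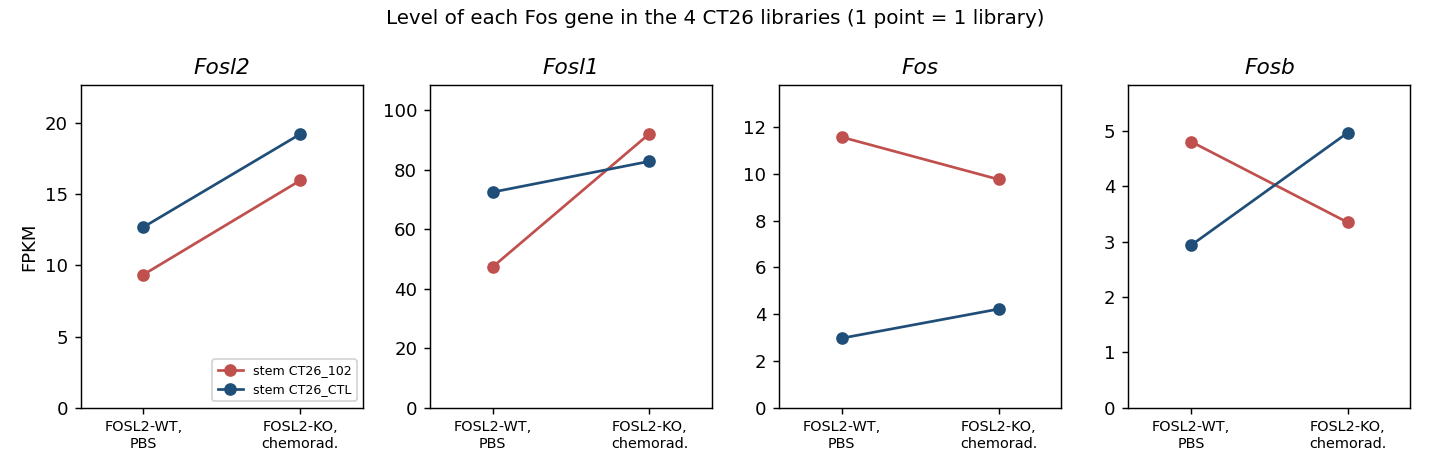
FPKM of each Fos gene (vertical axes, linear, each from 0) in the libraries labelled FOSL2-WT with PBS and FOSL2-KO with chemoradiotherapy, with a line joining the libraries of 1 title stem and 1 point per library. Both lines go up for Fosl2 and Fosl1, the stems stand apart for Fos at 9.77 to 11.6 against 2.98 to 4.22, and the lines cross for Fosb.

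**Figure D2:**
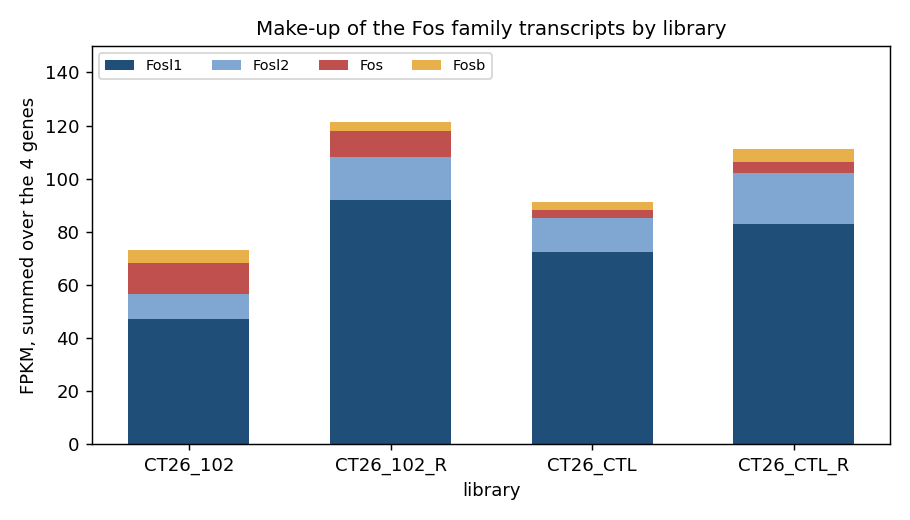
Summed FPKM of the 4 Fos genes (vertical axis) in each library, with bar segments for the single genes. The sum runs from 73.1 in CT26_102 to 121.2 in CT26_102_R, and Fosl1 is the largest segment in each bar.

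Fosl2 was higher in both libraries that carry the FOSL2-KO label, by 1.71 times in stem CT26_102 and by 1.51 times in stem CT26_CTL. The groups did not overlap, the lowest FOSL2-KO library being at 16.0 FPKM and the highest FOSL2-WT library at 12.7. Both libraries with suffix R lay above both others for 22.3% of all tested genes. On the scale of log2(FPKM + 1), Fosl2 rose by 0.64 ± 0.13 (SE, n = 2 libraries per group, 95% interval 0.30 to 0.97, adjusted p = 0.0444). This is limma's test with both the labelled group and the title stem as terms and Benjamini-Hochberg adjustment over all tested genes. Its p ranked 1224th among those genes, 91.3% of which had a lower difference. The call is close to the threshold of 0.05, and in 5 of 7 other settings it was lost. In limma with the group as the only term the adjusted p was 0.464, and without the filter on low values it was 0.167.

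In the comparison of labelled groups, 12.9% of tested genes passed, 905 upward and 636 downward, and of the 4 Fos genes 1 passed, Fosl2. With libraries rescaled to an equal sum of FPKM, 683 were higher and 944 lower, so the balance of directions over all genes depends on scaling. That rescaling left Fosl2 higher, by 0.57 (limma, adjusted p = 0.0561). An exact permutation test of 2 libraries against 2 has 0.333 as its smallest p and was therefore not used for single genes.

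Fosl1 was also higher in both libraries labelled FOSL2-KO, by 1.95 times in stem CT26_102 but by 1.14 times in stem CT26_CTL. The groups did not overlap, at 82.9 and 92.1 against 47.3 and 72.5 FPKM. Both libraries with suffix R lay above both others for 22.3% of all tested genes. The log2 difference of Fosl1 was 0.57 ± 0.20 (SE, n = 2 per group, 95% interval 0.05 to 1.08) and did not pass in limma (adjusted p = 0.115). Its size came mainly from stem CT26_102, since without either library of that stem the difference was 0.19.

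Fos and Fosb went in opposite directions in the 2 stems. Fos was at 0.844 times in CT26_102_R relative to CT26_102, and at 1.42 times in CT26_CTL_R relative to CT26_CTL. Fosb was at 0.696 and 1.69 times in the same pairs. Their mean log2 differences were 0.08 ± 0.19 for Fos (SE, 95% interval -0.41 to 0.57, limma adjusted p = 0.775) and 0.09 ± 0.27 for Fosb (95% interval -0.59 to 0.77, adjusted p = 0.825). These intervals leave room for a change of either sign. With 1 library per combination, whether the response differs between stems could not be tested.

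The sequence just before the start sites of Fos and Fosb is shown, from 100 to 10 bases before the RefSeq transcript start. Whether its sites bear on the values of either gene was not tested. Motif matches are in capitals.
Fos: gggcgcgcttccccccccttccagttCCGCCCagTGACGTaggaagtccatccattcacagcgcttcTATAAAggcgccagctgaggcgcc
Fosb: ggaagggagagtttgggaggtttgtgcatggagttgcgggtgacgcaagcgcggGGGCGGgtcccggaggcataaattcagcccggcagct
These lie at chr12:85473790-85473880 (plus strand) and chr7:19310055-19310145 (minus strand) in RefSeq's GRCm38.p6. Both strands of the 250 bases before the start were searched for TGANTCA (AP-1), TGACGT (the core of a cyclic AMP response element), TGACGTCA (that element in full), CCAAT (known as a site of the factor NF-Y), GGGCGG (known as a site of Sp1), TATAAA (the TATA box) and the CArG box bound by SRF. Fos held TGACGT at 66 to 61 bases before the start, GGGCGG on the minus strand at 74 to 69 and TATAAA at 33 to 28. Fosb held GGGCGG at 46 to 41 and at 2 overlapping places further upstream, and the 250 bases of Fosl2 held GGGCGG at 75 to 70. Of all 32851 promoter windows of this length, 6.47% held TGACGT, 32.7% GGGCGG and 12.4% TATAAA. The AP-1 site TGANTCA, in 6.75% of windows, was in none of these 3. Nor were TGACGTCA (1.55% of windows), CCAAT (33.8%) or the CArG box (1.47%). Bases further upstream than 250 were not searched, so sites there would be missed. The 250 bases of Fosl2 lie wholly within exons that GENCODE annotates and are not printed.

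**Figure D3:**
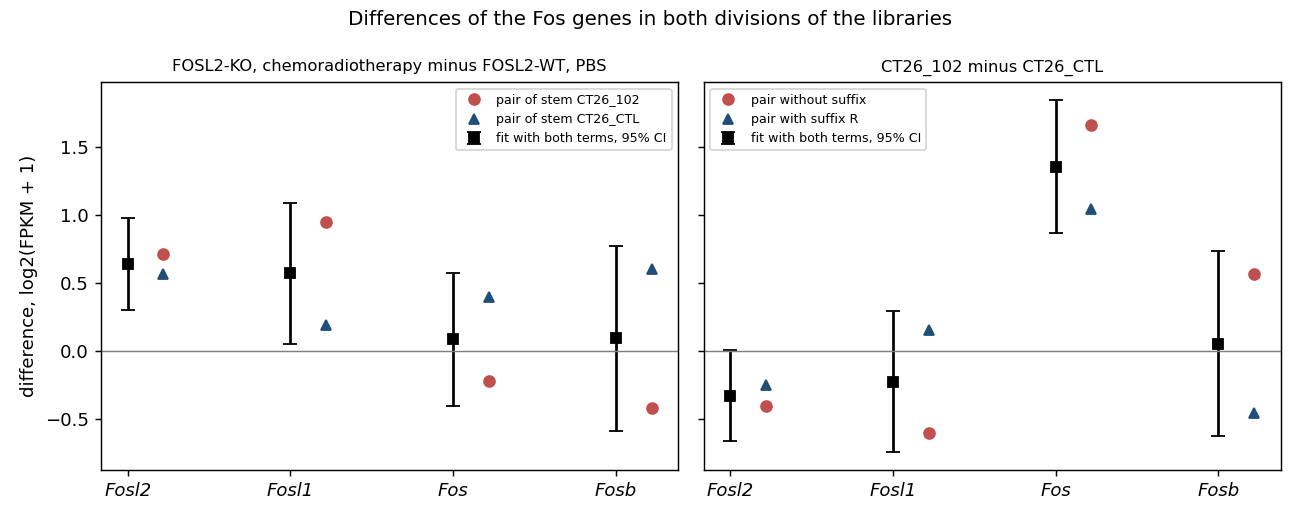
Difference in log2(FPKM + 1) (vertical axis) of each Fos gene between labelled groups (left) and title stems (right). Black squares are the fit with both terms with its 95% interval, and coloured points are the single pairs of libraries. The intervals of Fosl2 and Fosl1 on the left and of Fos on the right do not include 0, although Fosl1 does not pass after adjustment.

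Between title stems, Fos was higher in stem CT26_102, by 3.89 times without the suffix and by 2.31 times with it. The stems did not overlap, at 9.77 and 11.6 against 2.98 and 4.22 FPKM, and both CT26_102 libraries lay above both CT26_CTL libraries for 28.0% of tested genes. The log2 difference was 1.35 ± 0.19 (SE, n = 2 per stem, 95% interval 0.86 to 1.84, limma adjusted p = 0.0160), a larger absolute difference than in 97.1% of tested genes. With the stem as the only term the adjusted p was 0.127, and without the filter on low values it was 0.102. Over all tested genes 21.9% passed here, with 1494 calls upward and 1129 downward, and of the 4 Fos genes 1 passed, Fos. With median-of-ratios rescaling 1046 were higher and 1544 lower, and Fos kept a difference of 1.25 (limma, adjusted p = 0.0221).

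Fosl2 was lower in stem CT26_102, at 0.737 times CT26_CTL without the suffix and 0.831 times with it. The log2 difference was -0.33 ± 0.13 (SE, 95% interval -0.66 to 0.01) and did not pass in limma (adjusted p = 0.130). Fosl1 was at 0.653 times without the suffix and at 1.11 times with it, a mean log2 difference of -0.23 ± 0.20 (limma adjusted p = 0.440). Fosb was at 1.64 and 0.674 times in these pairs, with a mean of 0.05 ± 0.27 (adjusted p = 0.902) that turned to -0.04 with median-of-ratios rescaling. Both comparisons use the same 4 libraries.

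Some markers of other cells also differed between the libraries. Of 7 myeloid markers, 4 reached 1 FPKM in a library, and the list summed to 29.7 and 47.8 FPKM in the libraries labelled FOSL2-WT and to 132.7 and 90.9 in those labelled FOSL2-KO. Cd68, a lysosomal protein, was at 8.49, 63.9, 28.3 and 86.4 FPKM in CT26_102, CT26_102_R, CT26_CTL and CT26_CTL_R. Lyz2, a lysozyme gene, was at 15.0, 53.1, 13.1 and 4.36 FPKM, Tyrobp at 4.92, 13.4, 5.09 and 0, and Csf1r at 1.10, 1.998, 0.965 and 0.158. With suffix R all 4 were thus higher in stem CT26_102, while in stem CT26_CTL Cd68 was higher and the other 3 were lower. The pan-leukocyte gene Ptprc was at most 0.0880, and Itgam and Adgre1 were below 1 in every library. Of 6 fibroblast markers, 4 reached 1 FPKM, and the list summed to 222.9 and 100.9 FPKM in stem CT26_102 and to 108.0 and 76.0 in stem CT26_CTL. The sums were lower with suffix R in both stems, and those of the stems overlapped. The collagen genes differed among themselves, Col1a2 being at 107.5, 49.6, 84.6 and 57.8 FPKM and Col1a1 at 60.7, 30.7, 21.8 and 17.3. Col3a1 was at 53.0, 19.8, 0.568 and 0.144 FPKM, and Lum was listed at 0 in all 4. Endothelial markers summed to at most 0.563, B cell markers to 0.585 and erythroid markers to 1.24 FPKM. The part of these genes' cells in the differences of Fosl2 and Fos was not tested, and in bulk samples fewer cells of a type and less RNA per cell cannot be told apart.

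Of 25 partners with which Fos proteins or their relatives form AP-1 type dimers, 16 were tested. Between labelled groups 3 rose (Jun, Junb and Maff), 0 fell and 13 did not pass, 18.8% called against 12.9% of all tested genes. The median log2 difference of the tested partners was 0.19, against 0.00 for all tested genes. This list was chosen with earlier results of these data known, so its shares and medians in either comparison are no independent evidence. Jun and Junb encode the main partners of Fos proteins, with log2 differences of 1.16 and 1.23, and Maff, a small Maf protein without an activation domain, had one of 2.33 (limma, adjusted p between 0.0121 and 0.0201). Jund, the third Jun gene, was at 41.0, 79.1, 90.9 and 119.4 FPKM and did not pass (0.66, adjusted p = 0.0594). With the group as the only term, 0 of the 16 partners passed, as did 0.00836% of all tested genes (1 gene).

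By FPKM as deposited, Jun transcripts outnumbered Fos transcripts per length in all 4 libraries. The summed FPKM of Jun, Junb and Jund was 92.1, 206.1, 172.2 and 294.5, against 73.1, 121.2, 91.1 and 111.3 for the 4 Fos genes. The ratio of the sums was 1.26, 1.70, 1.89 and 2.65, higher with the suffix R in both stems. The Fos sums hold the uncertain values of Fosl1, and the ratios were not recalculated per length of the principal transcript. Jdp2, a repressor that pairs with Jun, was at 24.0, 27.6, 26.8 and 18.6 FPKM (log2 difference -0.16, limma adjusted p = 0.605). The stress-induced Atf3 was at 0.0429, 1.24, 0.438 and 0.288 FPKM, and Batf3, a partner in dendritic cells, at 0.0586 or less in every library. Neither passed the filter.

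Between stems, 1 of the 16 partners was higher in CT26_102 (Atf7), 5 were lower (Atf4, Cebpb, Junb, Jund and Maff) and 10 did not pass, 37.5% called against 21.9% of all tested genes. Fos stood at the other end from these 5, with a difference of 1.35 where Junb had -0.80, Jund -0.86 and Maff -1.02. The median of the partners was -0.24, against 0.05 for all tested genes.

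**Figure D4:**
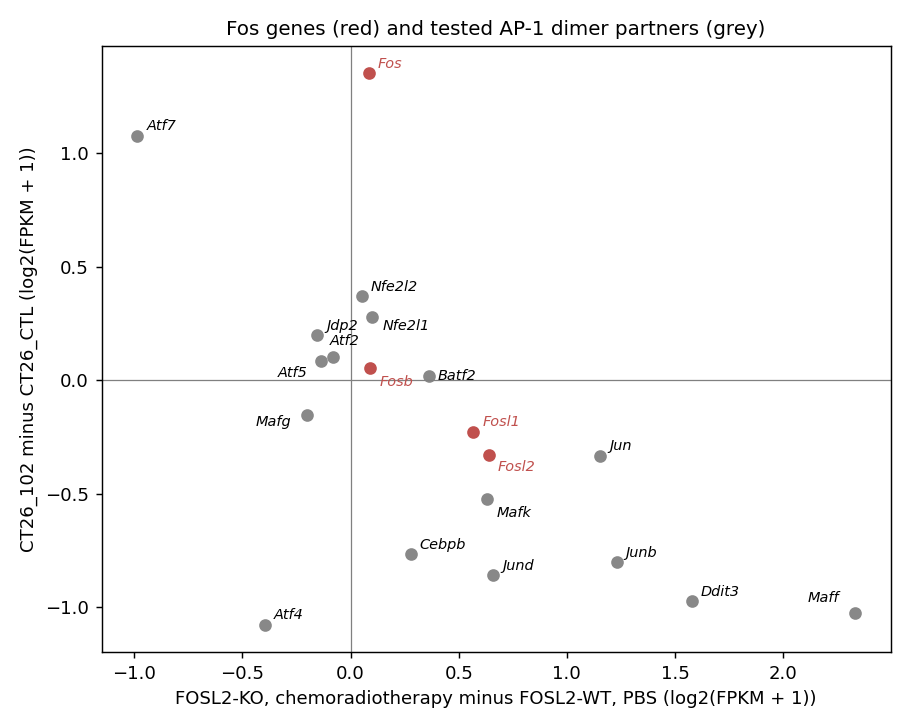
Log2 difference between labelled groups (horizontal axis) and between title stems (vertical axis) for the 4 Fos genes (red) and 16 tested AP-1 dimer partners (grey), 1 point per gene. Fosl2 and Fosl1 lie to the right of 0 and below it, as Jun, Junb, Jund, Maff, Ddit3, Mafk and Cebpb do. Fos lies near 0 on the horizontal axis and at 1.35 on the vertical.

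Genes that control Fos transcription and Fos protein stability were called at shares near those of all tested genes in both comparisons. Of 38 such genes, 35 were tested, since Crem and Rps6ka5 did not pass the filter and Map2k7, listed in 2 rows, was left out. Between labelled groups 1 rose, 2 fell and 32 did not pass, 8.57% called against 12.9% of all tested genes (median -0.03, against 0.00). Dusp1, a phosphatase that shuts off MAP kinases, rose from 11.2 to 20.9 FPKM with stem CT26_102 and from 16.8 to 45.1 FPKM with the other stem, by 1.10 on the log2 scale (limma, adjusted p = 0.0299). Mapk14, which encodes the stress kinase p38 alpha, fell from 9.82 to 3.94 and from 16.4 to 9.28 FPKM (-0.95, adjusted p = 0.0321). Map2k5, the kinase upstream of ERK5, fell from 9.11 to 5.01 and from 7.85 to 4.98 FPKM (-0.66, adjusted p = 0.0456). Between stems 2 were higher and 7 lower in CT26_102, 25.7% called against 21.9%.

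Of 48 genes described as AP-1 targets, 35 were tested, of which 14 rose, 2 fell and 19 did not pass between labelled groups. This was 45.7% called against 12.9% of all tested genes, with a median of 0.54 against 0.00, and 0 of them passed with the group as the only term. The members of this list were chosen with earlier results of these data known, so their share is no independent evidence of AP-1 activity. The largest rises were those of Csf2, which encodes the growth factor GM-CSF, by 2.93 on the log2 scale, of the EGF receptor ligand Areg by 2.73 and of the chemokine Cxcl1 by 2.64. Ptgs2, the inducible enzyme of prostaglandin synthesis, rose from 43.9 to 224.5 FPKM with stem CT26_102 and from 108.1 to 298.7 FPKM with the other stem (1.89 on the log2 scale). The 2 that fell encode partners in DNA methylation upkeep, Dnmt1 by 0.80 and Uhrf1 by 0.79 on the log2 scale. Limma's adjusted p for these named genes lay between 0.00886 and 0.0387. Between stems 4 of the 35 targets were higher and 11 lower in CT26_102, 42.9% called against 21.9%, with a median of -0.43 against 0.05.

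Likeness of pattern was measured as the distance between log2(FPKM + 1) profiles over the 4 libraries after subtraction of each gene's mean. Among 11954 other genes, those nearest to Fosl2 were Tmem128, Cd63-ps, mt-Te, Gpank1 and Ccdc59, at distances between 0.0212 and 0.0559. Cd63-ps is annotated as a pseudogene and may share reads with Cd63. Nearest to Fosl1 were Senp8, Znhit3, Mettl16, Gm44705 and Glul, and nearest to Fosb were Rapgef6, Fhdc1, Cenpx, Xpo6 and Phf3. Fos had AC123064.1, Ppp1r12a, Col4a1, Ube2o and Aldh7a1 nearest, at distances between 0.0583 and 0.179. Within the family, Fosl1 was the 662nd nearest gene to Fosl2 at a distance of 0.327, and Fosb and Fos came 5875th and 11397th. Fosb was the 4609th nearest gene to Fos, and Fos the 10825th nearest to Fosb, at a distance of 1.32. With 4 libraries and so many genes, near profiles arise for nearly any pattern, and these names are a description.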

How the data were processed

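The data are 4 RNA-seq libraries of CT26 cells. Per the labels' protocols, RNA was harvested by an RNeasy kit, and a SMARTer kit served for the libraries. The authors deposited FPKM per gene and library. The submitters' processing notes name the builds GRCm38 and mm10, which are 1 assembly. The sources used here do not give the aligner, the quantifier or whether strand was used. For 98.6% of 47860 values of genes with several transcripts, the value in units of its sixth decimal, times the gene's exonic length in GENCODE M21, was whole within 0.02, where 4% would be by chance. Such values arise when transcript FPKM are weighted by transcript length and divided by all exonic bases of the gene.

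Groups came from the labels and stems from the titles, which also pair the libraries. Values were analysed as log2(FPKM + 1), which understates folds of low genes, for genes with at least 1 FPKM in at least 2 libraries. R 4.3.3 with limma 3.58.1 (lmFit, eBayes with a mean-variance trend, two-sided) fitted labelled group and title stem together, with 1 residual and 4.01 prior degrees of freedom. Benjamini-Hochberg adjustment covered all tested genes, and 0.05 was the threshold. The words rose and fell refer to that threshold. The script was tested on simulated data. Alternatives left out the second term, the filter or the trend, changed the pseudocount to 0.1, rescaled libraries in 3 ways, or left out each library.

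The 4 Fos genes were always named. In the partner list Jun, Junb, Jund, Atf3, Maff, Batf3, Jdp2 and partners called in both divisions were named, and other partners after their values were seen. In the other 2 lists up to 5 called genes per direction with the largest differences between labelled groups were named, and none between stems. A gene of the target list that this rule names is not reported here, though the list's counts hold it. The 5 nearest genes in pattern were named for each Fos gene. Members and lists were chosen with earlier results of these data known. Mrtfa and Mrtfb were matched under their older symbols Mkl1 and Mkl2, and Map2k7, listed in 2 rows, was counted in its list but not among its tested or called members. Of the 2 rows of the marker Itgam, the one with the higher sum was used. Promoter stretches are from RefSeq, whose table held 3 of the 4 genes, and coding stretches from GENCODE M21 transcripts.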

Additional observations from a re-analysis of the deposited data

Results flagged for a closer look

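Fos differed in direction between stems, with a log2 difference between suffix R and none of -0.22 in stem CT26_102 and 0.39 in stem CT26_CTL, -0.62 apart. Fosb did likewise, at -0.42 and 0.60, or -1.02 apart, which is a larger absolute gap than in 96.9% of tested genes. For Fosb this also means that CT26_102 was above CT26_CTL without the suffix, by 0.56, and below it with the suffix, by 0.46 (-0.46), a gap of 1.02. Fosl1 was lower in CT26_102 than in CT26_CTL without the suffix, at -0.60, and higher with it, at 0.15, a gap of -0.76 that is larger in absolute size than in 93.3% of tested genes. Each direction rests on 1 library against 1, and these differences between stems or suffixes were not tested.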

How the results depend on the processing

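The rise of Fosl2 between labelled groups stayed between 0.57 and 0.68 on the log2 scale in all 7 settings that used 4 libraries. It remained past the threshold with a pseudocount of 0.1 (adjusted p = 0.0492) and with median-of-ratios rescaling (0.0464). It was lost with the group as the only term, without the title stem (0.638, limma adjusted p = 0.464), and with no filter (0.638, 0.167). It was also lost with no mean-variance trend (0.638, 0.0519), with upper-quartile rescaling (0.682, 0.0522) and with rescaling to an equal sum (0.571, 0.0561). The stem difference of Fos was lost with the stem as the only term (1.35, 0.127) and with no filter (1.35, 0.102) and passed in the other 5 settings, at 1.25 to 1.60. The stem difference of Fosb turned to -0.0404 with median-of-ratios rescaling. No other result of a Fos gene changed its direction or its side of the threshold in those settings.

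With the compared division as the only term, limma called 1 gene between labelled groups (1281 at an unadjusted p under 0.05) and 34 between stems. With no filter it called 0 of 27670 genes in each comparison, with 4937 and 5802 at an unadjusted p under 0.05. Over all tested genes, the median stem difference moved from 0.05 to 0.17 with rescaling to an equal sum, which gave 2063 higher and 820 lower calls between stems. The cause of these changes was not tested.

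With 1 library left out no residual degrees of freedom remain, so values have no test and counts of calls could not be had. The difference is then that of the pair of libraries left whole. These values therefore repeat the single pair differences and are no separate check. Leaving out each library in turn gave group differences of 0.563 to 0.713 for Fosl2, 0.190 to 0.947 for Fosl1, -0.224 to 0.393 for Fos and -0.418 to 0.602 for Fosb. Stem differences were -0.403 to -0.253 for Fosl2, -0.605 to 0.151 for Fosl1, 1.04 to 1.66 for Fos and -0.457 to 0.563 for Fosb. The sign of Fos and Fosb between groups turned without CT26_CTL or CT26_CTL_R. Between stems the sign of Fosl1 and Fosb turned without CT26_102 or CT26_CTL.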
